A study of Homo sapiens with 6 samples.

Results

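Integrin subunit genes were examined in HK-2 cells, a cell line established from the proximal tubule of human kidney and transformed with human papillomavirus 16. The 10 genes were chosen by symbol from the deposited table of read counts: ITGA2, ITGA3, ITGA5, ITGA6, ITGAV, ITGB1, ITGB3, ITGB4, ITGB5 and ITGB8. They are 10 of the 26899 genes of that table and 10 of its 26 integrin subunit genes, and all 10 passed the filter on low counts. The study sequenced polyadenylated RNA of 3 libraries titled HK2 ANXA2 knockdown and 3 titled HK2 WT, in order to ask how the transcriptome differs when annexin A2 is reduced. Both groups were HK-2 cells of the same source, grown in the same medium with 10% serum, and plasmids were introduced with a lipid reagent. The titles call the control cells wild type and their descriptions read shCtrl, so the labels leave unsettled what plasmid the controls received. The sources used here do not give the time after transfection, any selection, the number of hairpins or whether the 3 replicates were separate cultures. The p-values therefore measure the spread between these libraries, which may be technical.

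Integrins are cell surface receptors built from an alpha and a beta subunit. They bind matrix proteins outside the cell and link them through talin, kindlin and other adaptors to the actin skeleton. ITGB1 encodes the common partner of many alpha subunits, among them those for laminin (ITGA3, ITGA6), collagen (ITGA2) and fibronectin (ITGA5). ITGAV pairs with ITGB1, ITGB3, ITGB5, ITGB6 or ITGB8 in receptors for ligands such as vitronectin and latent TGF-beta. ITGB4 pairs with ITGA6 alone, in the hemidesmosomes that anchor epithelia to laminin. In the kidney, tubule cells rest on a laminin-rich basement membrane, and the alpha 3 beta 1 receptor is needed to build the glomerular filter.

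The libraries held between 24231267 and 34561675 counted reads, with the fewest in control replicate 1. ANXA2, the targeted gene, checks the labels. Its level was 827.1, 742.7 and 840.9 FPKM (fragment counts normalised to gene length and library depth) in the libraries labelled control and 762.0, 774.5 and 762.6 FPKM in those labelled knockdown. The groups overlapped, and edgeR gave a log2 fold change of -0.05 (SE 0.075, adjusted p = 0.848). The ANXA2 transcript thus did not bear out the labels, and the groups are named by their labels below. Every difference is one between labels. The epithelial markers KRT8 (491.3 FPKM over 6 libraries), KRT18 (261.1 FPKM) and PAX8 (115.2 FPKM) were abundant. Markers of mature proximal tubule were low apart from GGT1. This brush-border gene, whose reads are uncertain because it has near-identical copies, was at 69.0 FPKM. MME was at 0.778 FPKM, SLC34A1 at 0.127 FPKM, ANPEP at 0.023 FPKM, CUBN at 0.015 FPKM and AQP1 at 0.005 FPKM. LRP2 had 1 read, in control replicate 3. The epithelial cadherin gene CDH1 was at 0.043 FPKM. The tubular epithelial list summed to 2422 to 3049 CPM in the libraries labelled control and 2973 to 3135 CPM in those labelled knockdown, with 0 of 11 tested genes past an adjusted p of 0.05. Of 9 endothelial and platelet markers, 0 reached the filter (up to 0.478 CPM in sum), and of 9 fibroblast and mesangial markers 5 did, at 33.7 to 43.0 CPM in sum, led by LUM.

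To compare levels between genes, the deposited FPKM values were used, since they are scaled for length. ITGA3 and ITGB1 led, followed by ITGA5, ITGB5, ITGAV, ITGB3, ITGB4, ITGA6, ITGB8 and ITGA2. Over the 6 libraries the means were 153.0 FPKM for ITGA3, 106.9 for ITGB1, 54.3 for ITGA5, 38.0 for ITGB5 and 11.6 for ITGAV. The lower members had means of 5.42 FPKM for ITGB3, 2.90 for ITGB4, 2.51 for ITGA6, 1.20 for ITGB8 and 0.258 for ITGA2. For 7 of the 9 neighbouring pairs in this order, the ranges over 6 libraries were apart and every library gave the same order. The exceptions were ITGA3 above ITGB1, which held in 5 libraries but not in control replicate 2, and ITGB4 above ITGA6, which held in 4. HK-2 cells therefore carried transcripts for laminin and fibronectin receptors with the beta 1 chain and for the alpha V beta 5 receptor at levels well above those of the collagen-binding ITGA2. The 10 genes made up 96.2% to 97.2% of the summed FPKM of all integrin subunits listed. They were chosen with earlier results of these data known, so this share is no separate result. ITGB2, ITGAE and ITGB6, outside the set, had higher means than ITGB8 and ITGA2.

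**Figure D1:**
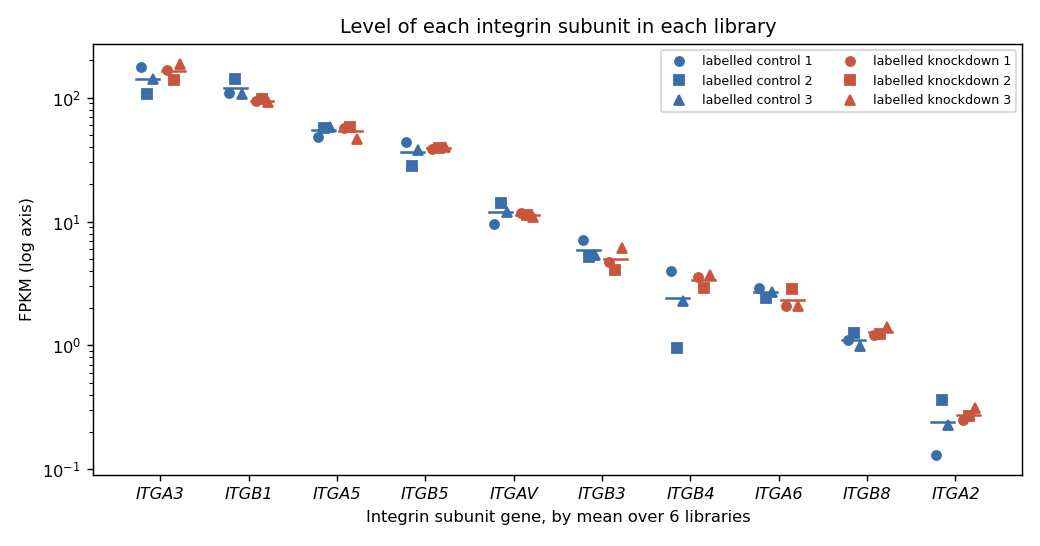
FPKM of the 10 integrin subunit genes on a log axis, with 1 point per library, a bar at the mean of each group (n = 3), blue for the libraries labelled control and red for those labelled knockdown. ITGA3 and ITGB1 lie near or above 100 FPKM and ITGA2 below 1, and only for ITGB1 do the 3 red points all lie on one side of the 3 blue points.

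In order to identify members that differed between the labels, the counts of 15299 genes were tested with edgeR. Of the 10 members, 0 passed an adjusted p of 0.05, as did 0% of all genes tested, and DESeq2 also gave 0 members, where it called 0.188% of the 16467 genes it tested. At an unadjusted p under 0.05 there was 1 member, ITGB1, which was lower in the libraries labelled knockdown. Among all genes tested, 4.32% had such a p in that direction and 8.18% in either. The groups did not overlap for 1 of 10 members, again ITGB1, against 15.6% of all genes tested. Estimates were above 0 for 6 members and below 0 for 4, with a median log2 fold change of 0.058, where the median of all genes was -0.0065. The groups did not overlap with the knockdown label lower for 7.7% of all genes and higher for 7.94%, and an unadjusted p under 0.05 in the higher direction was given by 3.86%, where the members had 0.

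ITGB1 (ENSG00000150093.18, chromosome 10 from 32887273 to 33005792 in GRCh38, minus strand) encodes the beta 1 chain shared by most receptors of this set. Its level was 109.2, 142.4 and 107.6 FPKM in the libraries labelled control and 93.2, 97.0 and 92.1 FPKM in those labelled knockdown. All 3 libraries labelled knockdown lay below the lowest control, and control replicate 2 lay far above the other controls. In bulk RNA such as this, fewer cells that carry a transcript and less of it per cell cannot be told apart. On the CPM scale, that is counts per gene scaled to depth with TMM factors, the means were 393.8 ± 12.7 and 495.5 ± 76.4 (SD, n = 3), for knockdown and control in that order. The log2 fold change by edgeR was -0.33 (SE 0.112), a change of -20.5% with a 95% interval from -33.2% to -5.39%. Its unadjusted p was 0.0153 and its adjusted p 0.599, so the difference did not hold after correction over all genes. The exact two-sided permutation p was 0.1, the smallest that 3 against 3 libraries allow. Over 16 alternatives the adjusted p ranged from 0.188 to 0.988. Without control replicate 2 the estimate was -0.20 (edgeR adjusted p = 0.92). Leaving out the highest control could not make the groups overlap. The processed pseudogene ITGB1P1 held 8 to 29 reads per library, against 11036 to 19075 for ITGB1.

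The laminin-binding alpha subunits were compared next. ITGA3 (ENSG00000005884.17, chromosome 17 from 50055968 to 50090481, plus strand) had 176.0, 106.9 and 140.8 FPKM in the libraries labelled control and 166.4, 139.5 and 188.5 FPKM in those labelled knockdown. The groups overlapped, with control replicate 2 lowest and knockdown replicate 3 highest. For ITGA3, edgeR gave a log2 fold change of 0.23 (SE 0.176, adjusted p = 0.717), and its 95% interval ran from -10.6% to 54.8%. Without control replicate 2 it was 0.064 and without control replicate 1 it was 0.43. ITGA6 (ENSG00000091409.14, chromosome 2 from 172427354 to 172506459, plus strand) had 2.92, 2.42 and 2.70 FPKM against 2.10, 2.86 and 2.08 FPKM. Knockdown replicate 2 lay among the controls, while the other libraries labelled knockdown lay below them. The difference for ITGA6 was -0.17 on the log2 scale (SE 0.170, edgeR adjusted p = 0.778; 95% interval from -32.1% to 15.6%), and it was -0.34 without knockdown replicate 2, -0.10 without knockdown replicate 1 or control replicate 1, and -0.089 without knockdown replicate 3.

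ITGB4 (ENSG00000132470.13, chromosome 17 from 75721328 to 75757818, plus strand), the hemidesmosome partner of ITGA6, varied most of the 10 members. It had 3.98, 0.95 and 2.30 FPKM in the libraries labelled control and 3.56, 2.92 and 3.71 FPKM in those labelled knockdown. Control replicate 2, with 201 reads, was far below every other library, which held 469 to 803 reads, and control replicate 1 was the highest. The highest library was 4.19 times the lowest, against 1.25 times for ITGA5, the steadiest member. By edgeR the log2 fold change of ITGB4 was 0.51 (SE 0.402, adjusted p = 0.726), and the 95% interval ran from -24.1% to 166%. The estimate depended on single control libraries, being 0.12 without control replicate 2 and 1.08 without control replicate 1 (adjusted p = 0.362). The ratio of ITGB4 to ITGA6 was 1.36, 0.393 and 0.852 in the libraries labelled control and 1.70, 1.02 and 1.78 in those labelled knockdown.

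ITGA2 and ITGA5 encode the collagen-binding alpha 2 and the fibronectin-binding alpha 5 chains. ITGA2 (ENSG00000164171.10, chromosome 5 from 52989340 to 53094779, plus strand) held few reads, with 27, 97 and 59 in the libraries labelled control and 73, 76 and 75 in those labelled knockdown. The 3 libraries labelled knockdown lay between the control extremes, and the interval of the difference, from -34.6% to 110%, was wide (edgeR log2 fold change 0.23, SE 0.373, adjusted p = 0.873). ITGA5 (ENSG00000161638.10, chromosome 12 from 54395261 to 54419266, minus strand) had 47.8, 57.2 and 58.4 FPKM against 57.3, 58.2 and 46.6 FPKM. Its groups overlapped almost fully, with 1 low library in each. For ITGA5, edgeR gave a log2 fold change of 0.0043 (SE 0.119, adjusted p = 0.993), and its interval ran from -16.8% to 20.8%.

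ITGAV and its beta partners form the receptors for vitronectin and for latent TGF-beta. ITGAV (ENSG00000138448.11, chromosome 2 from 186590010 to 186680901, plus strand) had 9.51, 14.1 and 11.98 FPKM in the libraries labelled control and 11.7, 11.3 and 10.96 FPKM in those labelled knockdown. ITGB5 (ENSG00000082781.11, chromosome 3 from 124761948 to 124901418, minus strand) had 43.98, 28.1 and 38.0 FPKM against 38.7, 39.3 and 39.9 FPKM. For both genes the libraries labelled knockdown lay close together and inside the control range, and control replicates 1 and 2 were the extremes in opposite directions. Log2 fold changes by edgeR were -0.05 for ITGAV (SE 0.135, adjusted p = 0.928) and 0.11 for ITGB5 (SE 0.152, adjusted p = 0.845). The interval was -22.0% to 19.1% for ITGAV and -14.8% to 37.2% for ITGB5. Each estimate changed sign without control replicate 2, to 0.084 for ITGAV and -0.052 for ITGB5.

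ITGB3 and ITGB8 were the minor beta partners of ITGAV within the set. ITGB3 (ENSG00000259207.7, chromosome 17 from 47253827 to 47313743, plus strand) had 7.04, 5.17 and 5.39 FPKM in the libraries labelled control and 4.69, 4.04 and 6.16 FPKM in those labelled knockdown. Knockdown replicates 1 and 2 lay below the controls and knockdown replicate 3 among them. For ITGB3, edgeR gave a log2 fold change of -0.23 (SE 0.184, adjusted p = 0.728) with an interval from -36.0% to 13.7%, and it was -0.40 without knockdown replicate 3 and -0.071 without control replicate 1. In GENCODE release 44, 33.2% of its exon bases are shared with a second gene on the same strand, listed as RP11-290H9.2, so its reads are uncertain. ITGB8 (ENSG00000105855.9, chromosome 7 from 20330702 to 20415754, plus strand), whose pairing with alpha V activates latent TGF-beta, had 1.10, 1.25 and 0.99 FPKM against 1.21, 1.23 and 1.42 FPKM. Its groups overlapped through control replicate 2 alone. For ITGB8, edgeR gave a log2 fold change of 0.22 (SE 0.155, adjusted p = 0.695), and the 95% interval ran from -8.38% to 48.5%.

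**Figure D2:**
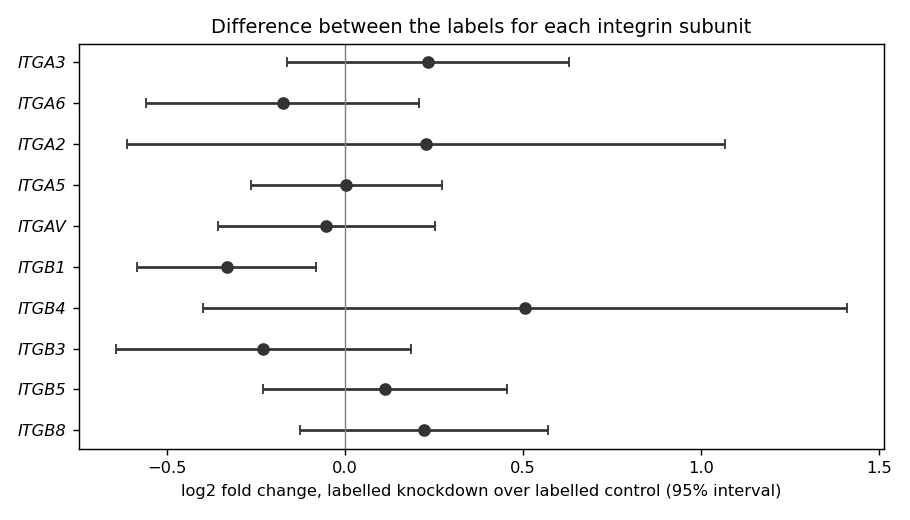
Points are edgeR log2 fold changes, labelled knockdown over labelled control, and bars are 95% intervals (n = 3 per group). The interval of ITGB1, from -0.58 to -0.080, is the only one that leaves out 0, before correction for the number of genes tested.

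The spread among the libraries labelled control was then set against the difference between the labels. On the log2 CPM scale the range within the 3 control libraries exceeded the absolute log2 fold change for all 10 members. The same share over all genes tested was not computed, so this count is not a result about the members. The control range was 2.08 for ITGB4, 1.37 for ITGA2, 0.747 for ITGA3 and 0.385 for ITGB1. For ITGB1 it exceeded the difference although the groups did not overlap. The control range was wider than the knockdown range for 7 of 10 members, and for 61.5% of all genes tested. Control replicates 1 and 2 were the highest and the lowest library, in either order, for ITGA2, ITGAV, ITGB4 and ITGB5. That is 4 of 10 members (40.0%), against 13.5% of all genes tested, a pattern noticed after the values were seen. Control replicate 2 departed most from the member means, with a root mean square of 0.562 on the log2 scale over the 10 members. ITGB4 weighed heavily in this value, at -1.48 in that library, where the next largest departure was -0.516 for ITGA3. The value without ITGB4 was not computed. Over all genes tested control replicate 1 departed most (0.533, against 0.441 for control replicate 2). Control replicate 1 was also the library of fewest reads, and the part of depth in these differences was not tested.

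**Figure D3:**
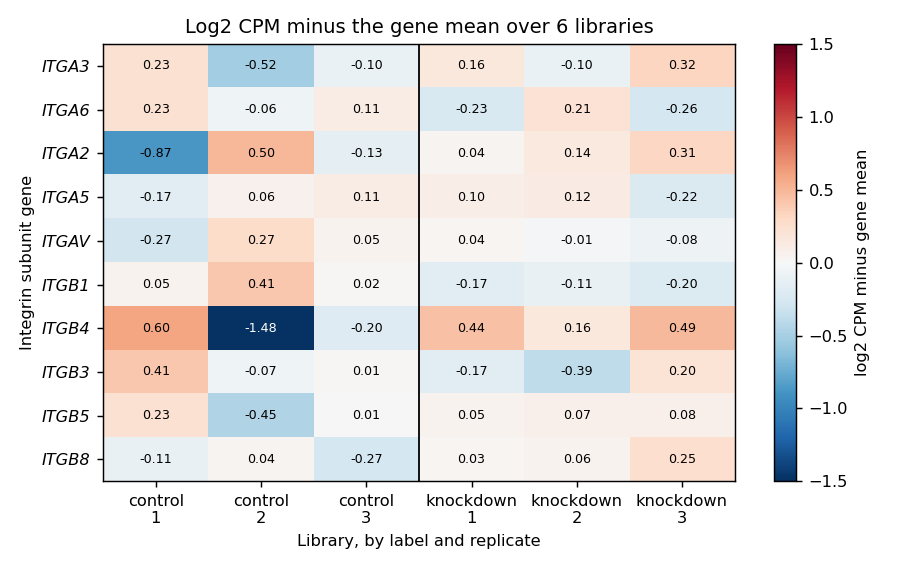
Log2 CPM of each member in each library minus the mean of that gene over 6 libraries, with red for higher and blue for lower, and the black line between the libraries labelled control and knockdown. Control replicate 2 shows ITGB4 at -1.48, ITGA3 at -0.52 and ITGB5 at -0.45 beside ITGA2 at 0.50 and ITGB1 at 0.41, and ITGB1 is below 0 in the 3 libraries labelled knockdown.

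Because subunits work in pairs, levels of partners were also compared within each library, and 9 ratios or shares were computed. The ratio of ITGA3 to ITGB1 in FPKM was 1.61, 0.750 and 1.31 in the libraries labelled control and 1.79, 1.44 and 2.05 in those labelled knockdown, and the groups overlapped (exact two-sided permutation p = 0.2). ITGA5 reached 0.438, 0.402 and 0.543 of the ITGB1 level against 0.615, 0.600 and 0.506, again with overlap (exact permutation p = 0.2). All listed alpha partners of ITGB1 with FPKM values were then summed, including ITGAV and ITGA6, which also pair with other beta subunits. They amounted to 2.17, 1.29 and 2.001 times ITGB1 in the libraries labelled control and 2.56, 2.20 and 2.70 times in those labelled knockdown. These ratios did not overlap, although control replicate 1 (2.17) and knockdown replicate 2 (2.20) were nearly equal. The denominator, ITGB1, was itself the only member whose groups did not overlap, so this separation is not independent of it. With 3 against 3 libraries no ratio could reach a p below 0.1. ITGB1 made up 61.4% to 76.4% of all beta subunit FPKM in the 6 libraries, with the highest share in control replicate 2, and ITGA3 made up 57.2% to 74.5% of all alpha subunit FPKM.

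Among the beta subunits that pair with ITGAV other than ITGB1, ITGB5 was the main one in every library. It made up 81.5%, 74.0% and 80.4% of the summed FPKM of ITGB3, ITGB5, ITGB6 and ITGB8 in the libraries labelled control and 82.2%, 83.4% and 81.2% in those labelled knockdown (exact permutation p = 0.2). ITGB3 took 8.59% to 13.6%, ITGB6 3.34% to 9.03% and ITGB8 2.04% to 3.30% over the 6 libraries. The 3.64 point difference in the ITGB5 share was 1.33 points without control replicate 2. ITGB5 was 4.63, 1.99 and 3.17 times ITGAV in the libraries labelled control and 3.31, 3.47 and 3.64 times in those labelled knockdown, so this ratio spread widely among the controls only.

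**Figure D4:**
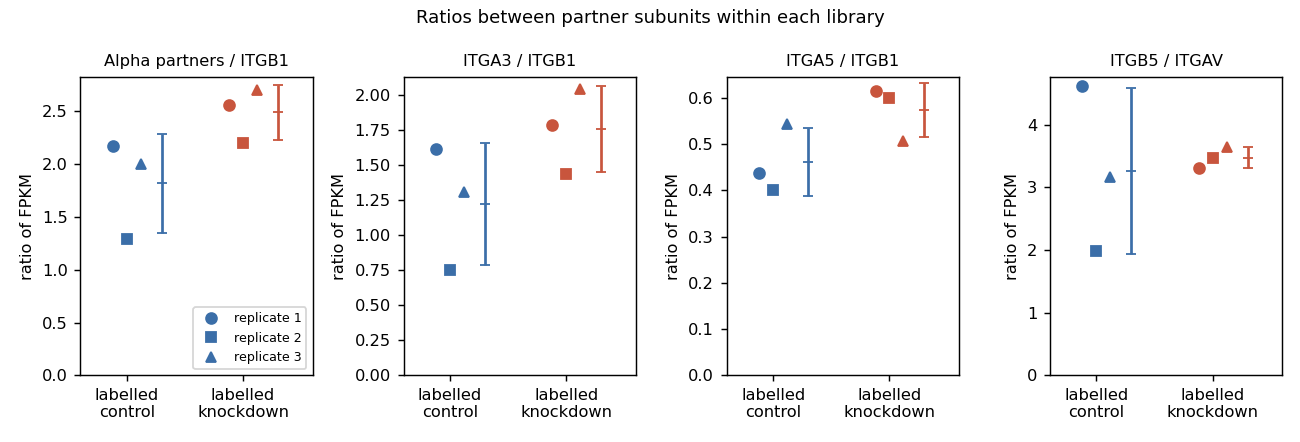
Ratios of FPKM between partner subunits within each library, drawn from 0, with blue for the libraries labelled control and red for those labelled knockdown; crossbars with whiskers are means ± SD (n = 3). Control replicate 2 (square) is lowest in all 4 panels, and only the summed alpha partners over ITGB1 separate the groups, between 2.17 and 2.20.

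The 16 integrin subunit genes outside the set were mostly low, and 8 of them passed the filter. Those with a mean of at least 1 FPKM were ITGB2 (5.26 FPKM), ITGAE (2.97 FPKM) and ITGB6 (2.46 FPKM). ITGB2 encodes the beta 2 chain of leukocyte integrins, and its level was steady at 5.04 to 5.56 FPKM. Its alpha partners were far lower, with 0.015 FPKM for ITGAL, 0.068 for ITGAM, 0.443 for ITGAX and 0.0017 for ITGAD. Of the 9 leukocyte markers listed, 5 passed the filter. The list holds ITGB2 and ITGAM themselves, and both passed, so neither this count nor the sum below is separate from them. The sum of the listed genes was 126.8 to 183.5 CPM in the libraries labelled control and 165.0 to 209.6 CPM in those labelled knockdown, of which CD74 gave the most (137.8 and 166.2 CPM on average). CD14 was at 1.20 FPKM and LCP1 at 0.822 FPKM, whereas LYZ was at 0.023 FPKM and CD79A at 0.018 FPKM. PTPRC and CD3E had no row in the deposited table of read counts. ITGB2-AS1 lies on the opposite strand and shares 4.15% of the exon bases of ITGB2, and the sources used here do not say how strand was used in counting. ITGAE encodes the alpha E chain, which pairs with ITGB7, and ITGB7 was at 0.0067 FPKM. HASPIN, on the opposite strand, shares 6.47% of the exon bases of ITGAE. ITGB6, an epithelial partner of ITGAV, had 1.86, 3.42 and 2.85 FPKM in the libraries labelled control and 2.48, 2.52 and 1.64 FPKM in those labelled knockdown. In GENCODE release 44, 16.7% of its exon bases are shared with another gene on the same strand. None of the 8 tested genes passed an adjusted p of 0.05 in edgeR, 0 had an unadjusted p under 0.05, and the groups did not overlap for 2 of them (25.0%, against 15.6% of all genes), ITGA4 and ITGAX, which had at most 43 and 145 reads. CERKL, on the opposite strand, shares 26.4% of the exon bases of ITGA4.

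Integrin ligands were well represented. Of 30 listed ligands or latent TGF-beta genes, 25 were tested, with 12 estimates above 0 and 13 below (median log2 fold change -0.024). In edgeR 0 passed the adjusted threshold and 1 had an unadjusted p under 0.05, and the groups did not overlap for 2 of 25 (8.0%), below the 15.6% of all genes. The most abundant were SPP1 (osteopontin, 627.1 FPKM), CYR61 (a matricellular protein, 434.9 FPKM) and FN1 (fibronectin, the ligand of alpha 5 beta 1, 377.9 FPKM). FBN1, which encodes the microfibril protein fibrillin 1, had 34.5 ± 3.96 CPM under the control label and 25.1 ± 2.86 CPM under the knockdown label (SD, n = 3), and its groups did not overlap. The difference by edgeR was -0.46 on the log2 scale (SE 0.136, unadjusted p = 0.00785, adjusted p = 0.599). For TNC (tenascin C) the edgeR log2 fold change was -0.60 and for LAMA5, a laminin chain bound by alpha 3 beta 1, it was 0.49 (adjusted p = 0.615 for each), and both overlapped.

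All 28 listed activators, adaptors and focal adhesion genes were tested. Of these, 19 had estimates above 0 and 9 below (median 0.10 on the log2 scale), and 0 passed the adjusted threshold in edgeR. The groups did not overlap for 6 of 28 (21.4%, against 15.6% of all genes), and 2 had an unadjusted p under 0.05. FERMT2, which encodes kindlin 2, an activator that binds beta tails, had a mean of 45.4 CPM under the control label and 37.7 CPM under the knockdown label (SD 3.41 and 1.6, n = 3). This was a log2 fold change of -0.27 (SE 0.107, edgeR adjusted p = 0.605). VASP, an actin regulator of focal adhesions, had 201.2 ± 19.3 CPM and 235.1 ± 5.90 CPM in the same order, and edgeR gave 0.22 on the log2 scale (adjusted p = 0.608). LIMS2, a partner of integrin-linked kinase, had a log2 fold change of 0.27 (adjusted p = 0.615). The actin cross-linkers FLNA (455.3 FPKM), ACTN4 (172.9 FPKM) and ACTN1 (148.8 FPKM) were the most abundant of this list, and their groups overlapped.

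The 8 hemidesmosome and tetraspanin partners gave 5 estimates above 0 and 3 below, with 0 past the adjusted threshold in edgeR, 0 with an unadjusted p under 0.05 and groups that did not overlap for 3 (CD81, TSPAN4 and COL17A1; 37.5%, against 15.6% of all genes). The tetraspanins CD81 (144.3 FPKM), CD151 (135.8 FPKM) and TSPAN4 (38.2 FPKM) were the most abundant. CD151, which binds alpha 3 beta 1, had a difference of -0.02 on the log2 scale (edgeR adjusted p = 0.964). TSPAN4 had 0.22 (adjusted p = 0.631), CD9 had 1.13 (adjusted p = 0.631) at 0.551 and 1.19 CPM, and PLEC, the plakin that links ITGB4 to keratins, had 0.21 (adjusted p = 0.653). COL17A1, the hemidesmosomal collagen, was at 0.190 FPKM.

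The genes whose profiles over the 6 libraries were nearest to those of 2 members were then listed, among 8914 other tested genes with a mean of at least 10 CPM. Likeness was the root mean square distance between centred log2 CPM values over 6 libraries. Nearest to ITGB1 were HNRNPR (0.0216), FAM20B (0.0242) and ADD3 (0.0263). HNRNPR, for example, had 153.2, 190.0 and 146.3 CPM in the libraries labelled control and 129.7, 138.6 and 126.2 CPM in those labelled knockdown, with the same high library. Nearest to ITGB4, the member of widest range, were TXNIP (0.166), MAL (0.199) and KRT7 (0.224), and each was lowest in control replicate 2. These genes were chosen by likeness of profile, so a shared high or low library is no separate result.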

How the data were processed

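Per the labels, polyadenylated RNA of HK-2 cells was made into directional libraries, 3 per group. The authors deposited raw read counts per gene, not normalised, and FPKM values rounded to 2 decimals. The submitters' processing notes name TopHat2, edgeR and GRCh38. The sources used here do not give the counting program, annotation release or strand setting.

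Counts of 26899 genes were tested in edgeR 4.0.16 (R 4.3.3; TMM scaling, filterByExpr with a minimum count of 10 and a total of 15, quasi-likelihood test, no covariates, two-sided, Benjamini-Hochberg adjustment over 15299 genes, threshold 0.05). CPM values are TMM-scaled. Coordinates are those of GENCODE release 44 on GRCh38. Exact permutation tests used SciPy 1.17.1, with a smallest p of 0.1. Scripts were tested on simulated data. Replicate pairs differed far beyond counting noise (chi-square per degree of freedom 10.3 to 54.2), and depth was 24231267 to 34561675 reads.

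The members and lists were chosen with earlier results of these data known. The text names all members, ANXA2, other subunits of at least 1 FPKM, the 3 most abundant and 3 smallest p-values of each pathway list, and the 3 nearest profiles of ITGB1 and of the member of widest range. Other genes were named after their values were seen. Alternatives were RLE, upper-quartile and library-size scaling, no filter, DESeq2 1.42.0, limma 3.58.1 (voom, log2(FPKM + 1) with and without a filter, and log2(FPKM + 0.1)), a replicate block, and leaving out each library. A further epithelial marker is not reported here and was left out of its list.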

Additional observations from a re-analysis of the deposited data

How the results depend on the processing

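The count of 0 members past the adjusted threshold was the same under all 16 alternatives, although edgeR without the filter called 165 genes in all and DESeq2 called 31. Among 160 member estimates, 150 kept their direction and 10 changed sign, and 0 passed the threshold. ITGA5 was -0.020 with library size only, -0.0132 on log2(FPKM + 1) with or without a filter and -0.0134 on log2(FPKM + 0.1). When 1 library was left out, ITGA5 spanned -0.0741 to 0.107, ITGA2 -0.0524 to 0.634, ITGAV -0.182 to 0.084, and ITGB5 -0.0524 to 0.272. The median of the members, 0.0583, spanned -0.0619 (without control replicate 1) to 0.108. ANXA2 kept its direction throughout (-0.113 to -0.0175 when 1 library was left out). The order of member levels was the same when each library was left out. The causes were not tested.

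With the replicate number as a block, edgeR called 0 members, 0 pathway genes and 0 genes in all. The deviations of same-numbered libraries had correlations of -0.0616, 0.118 and -0.203 over genes. Control replicate 1 correlated best with knockdown replicate 3 (0.217), and control replicates 2 and 3 with knockdown replicate 2 (0.118 and 0.194). Whether same-numbered libraries share more than a number was not tested further.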

Other observations

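Control replicate 1 and knockdown replicate 3, which held the fewest reads (24231267 and 28866835), were the highest pair of libraries for ITGA3, ITGB3, ITGB4 and ITGB5 and the lowest pair for ITGA5 and ITGAV. That is 6 of 10 members, against 25.6% of all genes tested, where the pair was lowest for 13.9% and highest for 11.8%. For ITGA5 the pair had 225.9 and 218.7 CPM and the other 4 libraries 265.2 to 276.4 CPM. ITGB6, outside the set, had 9.265 and 8.139 CPM in this pair and 12.45 to 16.73 CPM in the others. ITGA1, the collagen-binding alpha 1 chain, had 3.403 and 4.295 CPM against 8.176 to 22.61 CPM. Of the other tested subunits outside the set, ITGA7 was lowest and ITGAE highest in this pair. For ITGB2, ITGA4, ITGAX and ITGAM the pair was neither the highest nor the lowest. The pattern was noticed after the values were seen, it crosses the labels, and the part of depth in it was not tested.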
